A study of Mus musculus with 2 samples.

Results

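The genes described here are 8 genes that hemogenic endothelium expresses when blood stem cells arise from the wall of the embryonic aorta: Adgrg1, Smad6, Sox18, Neurl3, Sox17, Sox7, Emcn and Pecam1. They were taken by name as a list, with earlier results of these data known, from the 32285 genes in the files, and all 8 were found there. Their levels were read in fetal liver stem cells, in fetal liver endothelial cells and in 9 other groups of cells, in a WT library and in an IκBα KO library. The cells came from livers of CD1 mouse embryos at E14.5 (embryonic day), depleted of lineage-positive cells and sorted for the LSK phenotype (lineage-negative, SCA1-positive, cKIT-positive). The sample titles name long-term stem cells (LT-HSC) while the cell type entries name LSK cells, and erythroid-gated cells alone made up 1366 of the WT and 1916 of the KO cells, so the libraries were wider than either name. The WT library held the pooled cells of 2 embryos with intact IκBα and the KO library those of 3 embryos that lacked it, from a line with a targeted, constitutive Nfkbia knockout, so that IκBα was missing from every cell type and not from blood cells alone. Each genotype had 1 library, so no test between genotypes was possible, and every interval given covers counting error only. The data hold no aorta-stage cells, so whether a gene was kept from that stage could not be read from them. Of the 8 genes, 6 were detected in stem cells, whereas Sox17 was near 0 and Sox7 was at 0 there in both libraries. Detection does not show that a gene was kept, and Smad6, Pecam1 and Adgrg1 did not separate in stem cells from some other blood groups.

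In the mouse embryo, some endothelial cells of the dorsal aorta become hemogenic, switch on blood regulators such as Runx1 and Gfi1, and round up into hematopoietic cells that later seed the fetal liver. Endothelial genes are then gradually lost, although several surface proteins of the endothelium remain usual markers of blood stem cells. The 8 genes fall into 3 roles. Sox7, Sox17 and Sox18 form the SoxF family of HMG-box transcription factors, which direct endothelial and arterial identity. Smad6 (an inhibitory SMAD that dampens BMP signalling) and Neurl3 (a neuralized-family E3 ubiquitin ligase used to mark hemogenic endothelium) act inside the cell. Adgrg1 (the adhesion G-protein-coupled receptor GPR56), Emcn (the sialomucin endomucin) and Pecam1 (the adhesion molecule CD31) sit at the cell surface.

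The genes lie on several chromosomes of GRCm38 (GENCODE vM21): Adgrg1 at chr8:94974751-95014217, Smad6 at chr9:63953076-64022059, Sox18 at chr2:181669836-181671640, Neurl3 at chr1:36264597-36274679, Sox17 at chr1:4490931-4497354, Sox7 at chr14:63943673-63950732, Emcn at chr3:137341067-137432185 and Pecam1 at chr11:106654217-106750628. RefSeq start-site windows (build GRCm38.p6) were at hand for 4 of the 8 genes, with 2 start sites for Adgrg1. They are shown because Neurl3, Emcn and Smad6 were detected in both stem and endothelial cells, whereas Adgrg1 differed from them in where it was high. Each sequence runs 5′ to 3′ on the strand of the gene and stops before the nearest exon of that gene in GENCODE vM21. Capitals mark matches, on either strand, to 4 core motifs of blood and endothelial regulators, none of which overlapped another in these windows. The ETS family was searched with its core GGAAG. The RUNX family was searched with TGTGGT. For the SOX family the letters were ACAAT. For GATA factors the letters were AGATAA. The Adgrg1 windows lay at chr8:94976859-94976992 and chr8:94984149-94984370 on the plus strand, Smad6 at chr9:64022060-64022309 on the minus strand, Neurl3 at chr1:36273584-36273675 on the minus strand and Emcn at chr3:137340828-137341066 on the plus strand.
Adgrg1, upstream start: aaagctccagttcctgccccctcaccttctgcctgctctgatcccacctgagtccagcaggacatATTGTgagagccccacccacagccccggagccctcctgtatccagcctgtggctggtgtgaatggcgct
Adgrg1, downstream start: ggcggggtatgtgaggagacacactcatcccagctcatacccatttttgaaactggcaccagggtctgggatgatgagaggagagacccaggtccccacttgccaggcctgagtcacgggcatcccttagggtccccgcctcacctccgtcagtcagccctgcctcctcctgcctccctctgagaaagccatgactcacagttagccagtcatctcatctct
Smad6: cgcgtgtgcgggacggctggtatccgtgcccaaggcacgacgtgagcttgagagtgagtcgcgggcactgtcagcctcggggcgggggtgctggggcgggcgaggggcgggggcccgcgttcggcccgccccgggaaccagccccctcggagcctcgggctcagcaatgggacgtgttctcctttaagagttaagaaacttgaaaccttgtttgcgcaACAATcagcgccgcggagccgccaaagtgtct
Neurl3: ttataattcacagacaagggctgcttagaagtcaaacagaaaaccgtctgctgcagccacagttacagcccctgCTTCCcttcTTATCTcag
Emcn: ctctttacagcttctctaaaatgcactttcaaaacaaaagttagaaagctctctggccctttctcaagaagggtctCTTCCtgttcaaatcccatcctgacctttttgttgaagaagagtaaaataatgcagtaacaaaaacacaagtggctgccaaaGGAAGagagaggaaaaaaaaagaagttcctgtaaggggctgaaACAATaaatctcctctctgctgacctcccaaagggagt

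In the whole 250 bases before each start site, Neurl3 held 2 ETS cores (1 of them past the stretch printed) and 1 GATA core, Emcn held 2 ETS cores and 1 SOX core, and Smad6 held 1 SOX core. The upstream Adgrg1 window held 1 SOX core and the downstream one held none of the 4 motifs. Of 32544 RefSeq windows of the same length, 64.1% held the ETS core, 14% the RUNX core, 27.4% the SOX core and 9.97% the GATA core. The RUNX core was found in none of the 5 windows, which says only that these letters were not there. A match is a description of the letters and not evidence of binding.

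The WT library held 3458 cells after filtering (median 28065 unique molecular identifiers, UMIs, per cell) and the KO library 4417 cells (median 19560), so KO cells were shallower throughout. A UMI marks an original RNA molecule. Levels are given as CPM, the UMIs of a gene over all UMIs of a group of cells scaled to 1000000, with exact 95% Poisson intervals. Male cells made up 0.116% of the WT and 17.4% of the KO library, doublet calls 3.90% and 5.80%, and 7 cell barcodes were shared by both libraries. Genotype therefore could not be told apart from pool, sex and depth.

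Stem cells were defined as cells with at least 1 UMI each of Hlf and Mecom, transcription factor genes of the most immature blood stem cells, that passed no other marker gate. This gave 419 WT and 356 KO stem cells, with a median of 17249 and 12417.5 UMIs. The cut is thin for some of them: 37 WT and 71 KO stem cells held a single UMI of each gate gene. Of the listed stem cell genes the gate did not use, Procr (the surface receptor EPCR) was at 26.6 CPM in WT and 26.0 in KO stem cells. Procr, Mycn, Pdzk1ip1 and Hoxa9 were highest in stem cells among the groups compared, and the other listed genes were not. Fgd5 was at 26.3 and 25.6 CPM, below endothelial cells (71.3 and 81.9). Mllt3, at 73.1 and 72.8, was below erythroid cells (84.4 and 84.6). Meis1, at 78.8 and 78.5, was below megakaryocytes (98.7 and 97.6). Endothelial cells were those with 5 or more of 14 endothelial marker genes, with at least 10 UMIs of these genes per 10000 UMIs, that passed no other gate. They numbered 53 WT and 68 KO cells. All 53 WT and 62 KO endothelial cells held both Stab2 and Lyve1, receptors that mark the sinusoidal endothelium of the liver. Near that cut, 11 WT and 16 KO cells held 4 to 6 of the markers. In all, 73 WT and 99 KO cells held 7 or more, so the other conditions of the gate left some of these out. Cells that passed more than 1 gate (127 WT and 189 KO, of which 34.6% and 39.7% were doublet calls) were left out. Mast and stellate cells, which were too few to compare, were counted only among all other cells.

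The targeted gene bore out the labels. Nfkbia, which encodes IκBα, had 1478 UMIs over all WT cells (13.6 CPM) and 7 over all KO cells (0.0707 CPM). In WT it was at 20.2 CPM in stem cells and at 57 CPM in endothelial cells, and in KO it had 0 UMIs in stem cells and 1 in endothelial cells.

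**Figure D1:**
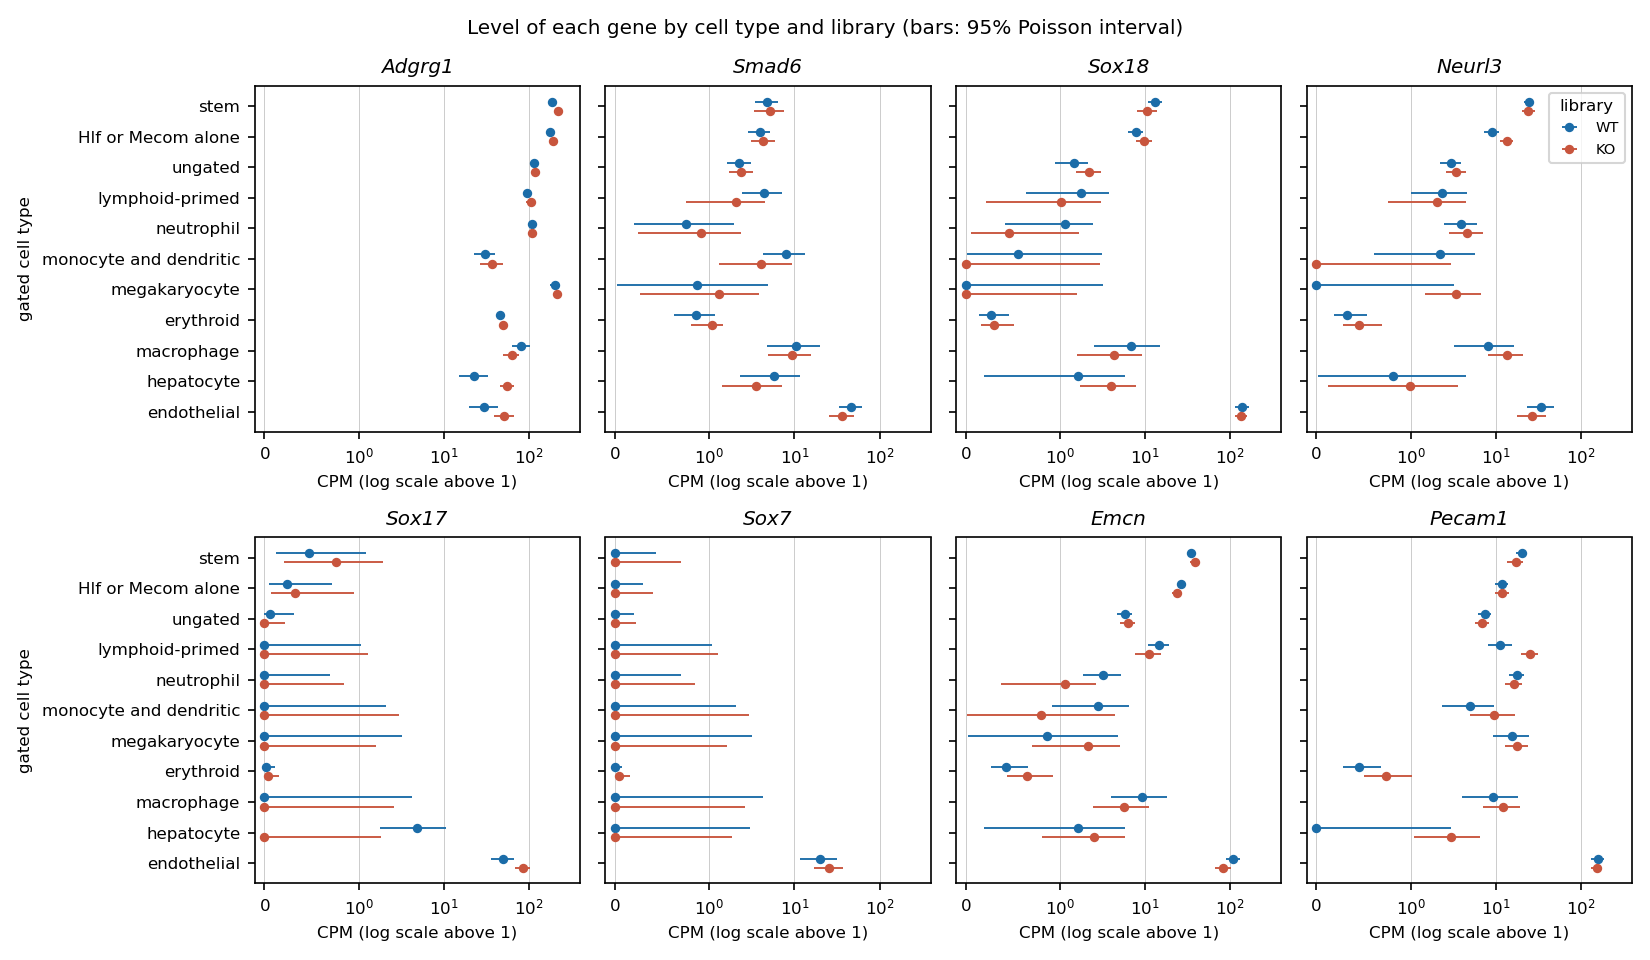
Level of each of the 8 genes in CPM (horizontal axis, logarithmic above 1 and linear below) in 11 groups of cells (vertical axis), with the WT library in blue, the KO library in red and 95% Poisson intervals as bars. Sox17 and Sox7 stand apart in endothelial cells, and Adgrg1 is highest in stem cells and megakaryocytes. The other 5 genes are highest in endothelial cells with a lower level in stem cells, which for Neurl3 is not distinguishable by counting error.

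Among the SoxF genes, Sox18 was the member detected in stem cells. Sox18 was at 13 CPM in WT stem cells (95% Poisson interval 10.7 to 15.7, 110 UMIs) and at 10.6 in KO stem cells (8.02 to 13.8, 56 UMIs), against 138 CPM in WT and 134 in KO endothelial cells. It came next in cells with Hlf or Mecom alone, at 7.79 CPM in WT and 9.82 in KO, and was at 0 UMIs in megakaryocytes of both libraries. Stem cells were thus the second group in the order of Sox18 levels, well below endothelial cells, and in KO they did not separate from cells with Hlf or Mecom alone by counting error.

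Sox17 and Sox7 were endothelial in these livers. Sox17, which fetal blood stem cells are known to need, had 4 UMIs in WT stem cells (0.474 CPM, 0.129 to 1.21) and 4 in KO stem cells (0.758 CPM, 0.207 to 1.94). Its endothelial level was 49.4 CPM in WT and 84.7 in KO. Sox7 had 0 UMIs in the 419 WT and 356 KO stem cells, where a floor of 3 UMIs stands at 0.356 and 0.569 CPM and the exact interval reaches 0.438 and 0.699, and it was at 19.7 CPM in WT and 25.7 in KO endothelial cells. Outside endothelial cells and stem cells, the largest count of Sox17 was 6 UMIs in a single WT hepatocyte-gated cell.

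The genes that act inside the cell differed in how near the stem cell level came to the endothelial one. Neurl3 was at 24.8 CPM in WT stem cells (21.5 to 28.4, 209 UMIs) and 24.1 in KO stem cells (20.1 to 28.6, 127 UMIs), close below its 34.0 CPM in WT and 26.7 in KO endothelial cells. Cells with Hlf or Mecom alone had 8.93 CPM in WT and 13.4 in KO, a value that overlapped that of macrophages (8.07 and 13.5). Smad6 was sparse in stem cells, with 40 UMIs in WT (4.74 CPM, 3.39 to 6.46) and 27 in KO (5.12 CPM, 3.37 to 7.45), and stood at 46.1 CPM in WT and 36.2 in KO endothelial cells. Macrophages came second for Smad6 at 10.4 and 9.25 CPM, and stem cells did not separate from monocytes and dendritic cells (7.85 and 3.99) or hepatocytes (5.70 and 3.48).

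The surface genes followed 3 different orders. Emcn was at 34.6 CPM in WT stem cells (30.8 to 38.8, 292 UMIs) and 38.9 in KO stem cells (33.7 to 44.6, 205 UMIs), below endothelial cells (109 in WT, 82.8 in KO) and above every other group in both libraries, of which cells with Hlf or Mecom alone came next (26.1 and 24.0). Pecam1 was at 20.3 CPM in WT stem cells (17.4 to 23.6, 171 UMIs) and 17.1 in KO stem cells (13.7 to 21.0, 90 UMIs), far below endothelial cells (158 and 154). Its stem cell level did not separate from that of neutrophil precursors (17.6 and 16.2) or megakaryocytes (15.6 and 17.7). Lymphoid-primed cells lay below stem cells in WT, at 11.3 CPM (log2 of stem over lymphoid-primed 0.84, 0.33 to 1.38), and above them in KO, at 25.1 (log2 -0.56, -1.02 to -0.09). Adgrg1 was the exception among the 8 genes, with 187 CPM in WT stem cells (178 to 197, 1580 UMIs) and 217 in KO stem cells (205 to 230.4, 1147 UMIs). Megakaryocytes, at 204 and 215 CPM, did not separate from stem cells in either library, cells with Hlf or Mecom alone, at 178 and 189.8, lay below them by counting error in KO, and its endothelial level was 29.6 in WT and 51.4 in KO. Erythroid cells, where the other 7 genes were at 1.08 CPM or less, held Adgrg1 at 45.6 CPM in WT and 49.6 in KO.

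Set against all other cells of the same library, 6 of the 7 genes with enough UMIs were at least 2-fold higher in stem cells in both libraries (log2 of 1 or more), where 15.2% of 13536 genes were. Neurl3 had the largest difference, 9.06-fold in WT (log2 3.18, counting interval 2.91 to 3.45) and 7.41-fold in KO (log2 2.89, 2.58 to 3.2). Emcn followed at 5.18-fold in WT and 6.81-fold in KO, then Sox18 at 4.34-fold and 3.07-fold and Pecam1 at 3.08-fold and 2.31-fold. Adgrg1 was 2.25-fold and 2.50-fold higher, and Smad6 2.01-fold (log2 1.01, 0.48 to 1.5) and 2.18-fold, at the border of the threshold. Sox17 had a log2 of -0.33 in WT (-2.25 to 1.11) and -0.50 in KO, and Sox7 was too rare to be counted. Erythroid cells made up 1366 of the 2912 other cells in WT and 1916 of 3872 in KO. Against lymphoid-primed cells alone, Neurl3, Sox18 and Emcn were above a log2 of 1 in both libraries. There, Smad6 had 0.12 (-0.76 to 1.09) in WT and 1.31 (0.00 to 2.88) in KO, Adgrg1 0.97 and 1.05, and Pecam1 0.84 and -0.56.

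Against endothelial cells, 5 of the same 7 genes were at least 2-fold lower in stem cells in both libraries (log2 of -1 or less), beside 11.2% of 10282 genes. Sox17 was 104-fold lower in WT and 112-fold lower in KO. Sox7 had 0 UMIs in stem cells and, set at the floor of 3 UMIs there, was 55.5-fold and 45.2-fold lower. The counting interval of the Sox7 log2 reached up to -5.35 and -5.10, which allows smaller differences than those. Sox18 was 10.6-fold and 12.6-fold lower, Smad6 9.71-fold and 7.07-fold, Pecam1 7.79-fold and 9.04-fold, and Emcn 3.14-fold and 2.13-fold. Neurl3 was 1.37-fold lower in WT (log2 -0.46, -1 to 0.14) and 1.11-fold lower in KO (log2 -0.15, -0.75 to 0.50), so that its stem and endothelial levels were not distinguishable by counting error. Adgrg1 was 6.33-fold higher in WT stem cells and 4.23-fold higher in KO stem cells than in endothelial cells. Most of its endothelial UMIs lay in doublet calls. Without doublet calls Adgrg1 was at 193 CPM in stem cells against 6.22 in endothelial cells in WT, and at 221 against 30.6 in KO.

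**Figure D2:**
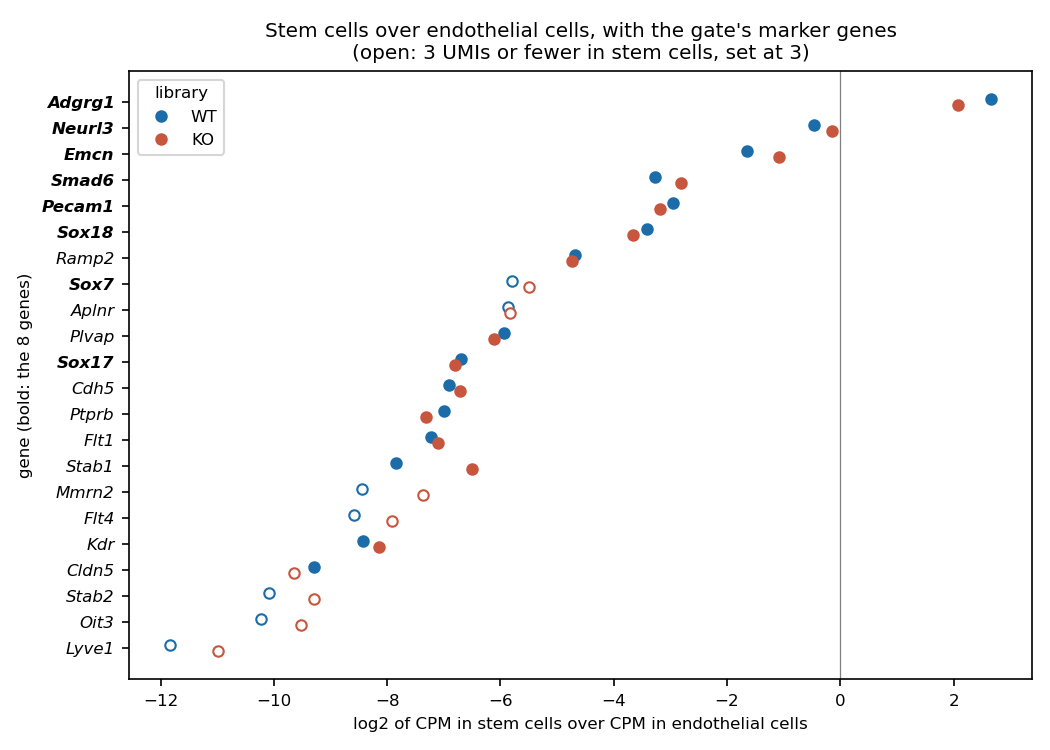
Log2 of the CPM in stem cells over the CPM in endothelial cells (horizontal axis) for the 8 genes (bold) and the 14 marker genes of the endothelial gate (vertical axis), WT in blue and KO in red, with open circles for genes of 3 UMIs or fewer in stem cells, set at 3. Sox17 and Sox7 lie among the endothelial markers, and the other 6 genes lie above every one of them.

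Endothelial RNA in the stem cell gate was measured through the 14 marker genes, none of which is among the 8. Kdr, Stab2 and Lyve1 together had 18 UMIs in WT stem cells and 14 in KO stem cells, against 2060 and 2154 in endothelial cells. Of all 14 markers, Ramp2 (a co-receptor of the adrenomedullin receptor) made up most of the stem cell UMIs, with 258 of 391 in WT and 139 of 229 in KO, and Aplnr had 0 in both. In all, 13 of the 14 markers had a UMI in stem cells of each library, at a summed 46.4 CPM in WT and 43.4 in KO, against 5558 and 5175 in endothelial cells. The stem cell group held no cell of the endothelial gate by construction, and no stem cell held more than 4 of the markers. In the 330 WT and 303 KO stem cells with no UMI of Kdr, Stab2, Lyve1, Flt1, Flt4, Cdh5, Oit3 or Plvap, Sox18 was at 14.4 CPM in WT and 11.4 in KO, Emcn at 37.3 and 40.8, and Neurl3 at 26.0 and 21.3. Of all stem cells, 196 WT and 205 KO cells held none of the 14 markers. The part of endothelial RNA in the stem cell levels was not tested.

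The share of cells with a UMI was compared after each cell was thinned to 5000 UMIs, which left out 5 WT and 12 KO stem cells that were shallower. Adgrg1 was detected in 60.1% of WT (exact binomial interval 55.2 to 64.9) and 68.0% of KO stem cells (62.8 to 72.9). Emcn was detected in 16.9% of WT and 20.3% of KO stem cells, Neurl3 in 60 of 414 and 47 of 344 cells, Pecam1 in 9.42% and 9.30%, Sox18 in 7.49% and 5.52%, and Smad6 in 2.42% and 3.49%. Sox17 was detected in 2 of 414 WT and 2 of 344 KO stem cells, and Sox7 in none of them, where the exact interval allows up to 0.887% and 1.07% of cells with a UMI at this depth. That does not limit the share of cells that express Sox7, since it had a UMI in only 16% of WT and 13.6% of KO endothelial cells thinned alike. Erythroid cells (median 34087.5 and 21992 UMIs before thinning, against 17303 and 12590 in the stem cells used) served as a type that should lack these genes. There, Emcn was detected in 0.222% of WT and 0.263% of KO cells, Neurl3 in 0.148% and 0.158%, Pecam1 in 0.148% and 0.210%, Sox18 in 0.148% and 0.158%, and Smad6 in 0.517% and 0.421%. Adgrg1, in contrast, had a UMI in 276 of 1354 WT and 381 of 1901 KO erythroid cells. Without thinning, the stem cell shares were 93.8% of WT and 90.2% of KO cells for Adgrg1 and 47.0% and 42.1% for Emcn, the reverse order of the thinned shares, with WT cells the deeper ones.

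Few stem cells showed several of the genes at once at this depth. Of Smad6, Sox18, Neurl3, Emcn and Pecam1, 59.7% of thinned WT stem cells held none, 31.2% held 1, 8.21% held 2, and 4 of 414 cells held 3 or more. In KO the shares were 57.3%, 34.0% and 7.85%, with 3 of 344 cells at 3 or more. Among endothelial cells thinned alike, 28.0% of WT and 27.3% of KO cells held 3 or more of the 5. No stem cell held more than 7 UMIs of any of these 5 genes at full depth.

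In KO over WT stem cells, none of the 6 genes with at least 20 UMIs passed a log2 of 0.5 in either direction, where 4.61% of 11224 genes were at or above 0.5 and 5.85% at or below -0.5. The median of the 6 was 0.034, and that of all genes 0.009. For Adgrg1 the log2 ratio was 0.21 (0.10 to 0.33), and it was the only one whose interval lay above 0, as it did for 6.53% of genes, while none lay below 0, as it did for 5.35%. Emcn had 0.17 (-0.10 to 0.43), Smad6 0.11 (-0.65 to 0.85) and Neurl3 -0.04 (-0.37 to 0.28). Pecam1 had -0.25 (-0.63 to 0.13) and Sox18 -0.30 (-0.79 to 0.18). The interval of Sox18 reaches down to -0.79 and that of Smad6 is wider still, so these values do not show equal levels. Adgrg1 in female cells only had a log2 of 0.25 (0.12 to 0.37), and with clusters in place of the gates 0.08. On thinned counts of cells gated after thinning it had 0.12 (-0.20 to 0.43), an interval that included 0.

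**Figure D3:**
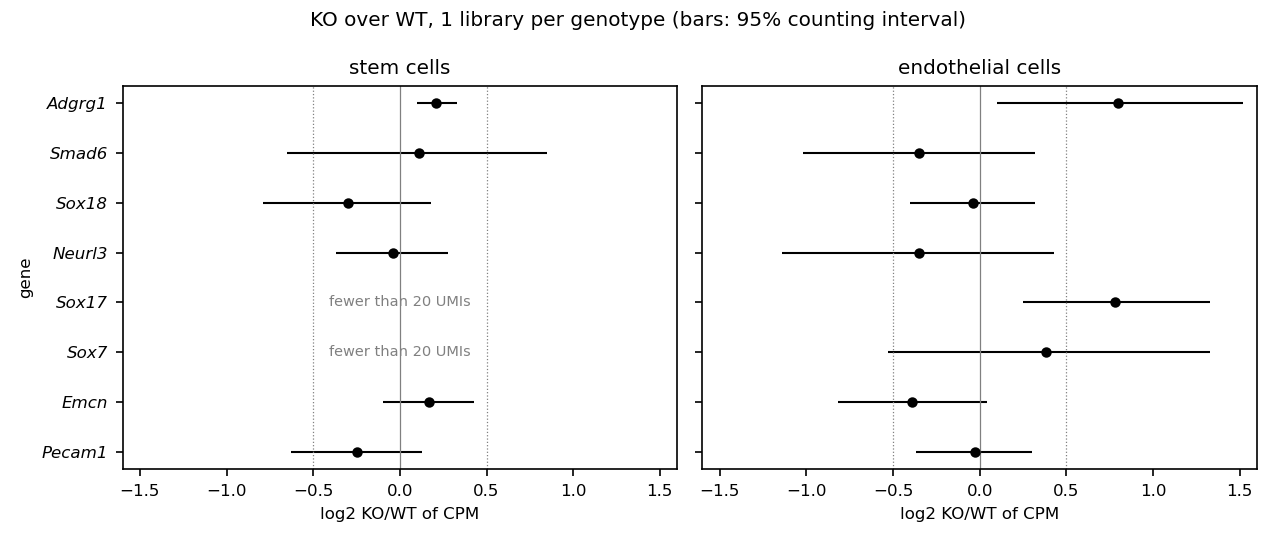
Log2 KO over WT of CPM (horizontal axis) for each of the 8 genes (vertical axis) in stem cells and in endothelial cells, with 95% counting intervals as bars and dotted lines at the threshold of 0.5. Sox17 and Sox7 had fewer than 20 UMIs in stem cells and have no point there, the other 6 genes lie inside the threshold in stem cells, and in endothelial cells Adgrg1 and Sox17 lie beyond it at 0.80 and 0.78.

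Within stem cells, 4 of the 6 genes tested had a higher CPM where few proliferation transcripts were found, by a split chosen after seeing the data. Cells were split by the summed UMIs of 15 proliferation genes (Mki67, Top2a and the like) after thinning. Cells with 0 to 2 such UMIs made up 31.2% of WT (129 of 414, 26.7 to 35.9) and 22.7% of KO stem cells (78 of 344, 18.4 to 27.5), and had a median of 12417 and 8021.5 UMIs before thinning, against 20212 and 13976 in the rest. Sox18, Neurl3, Emcn and Pecam1 were higher in these cells with intervals above 0 in both libraries, as were 4.18% of 9675 genes. Neurl3 was at 46.3 CPM against 19.1 in WT (log2 1.28, 0.85 to 1.69) and at 43.9 against 19.8 in KO (log2 1.15, 0.50 to 1.76). Sox18 was at 28.1 against 9.10 CPM in WT (log2 1.63, 1.05 to 2.20) and at 19.0 against 9.03 in KO (log2 1.08, 0.05 to 2.00).

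The surface genes were less even in this respect. Emcn was at 48.1 against 31.3 CPM in WT and 64.4 against 34.8 in KO, and Pecam1 at 30.5 against 17.8 and 27.8 against 15. For both genes this held for the share of all UMIs and not for UMIs per cell. Emcn had 82 UMIs in 129 WT cells against 210 in 285, and 44 in 78 KO cells against 158 in 266. Pecam1 had 52 against 119 in the same WT cells and 19 against 68 in KO. Adgrg1 was close to level, at 198 against 184 CPM in WT (log2 0.10, -0.07 to 0.28) and 206 against 217 in KO (log2 -0.07, -0.34 to 0.18). Smad6, on 9 WT and 8 KO UMIs in the cells with few proliferation transcripts, had a log2 of 0.19 (-1.07 to 1.30) in WT and 1.56 (0.15 to 2.84) in KO. By the stricter split at 0 proliferation UMIs (48 WT and 19 KO cells, thinned counts), Neurl3 was again higher, with a log2 of 1.51 in WT (0.66 to 2.29) and 1.74 in KO (0.53 to 2.79). For the other genes the intervals of that split included 0. KO over WT within the cells with few proliferation transcripts was -0.08 for Neurl3 (-0.73 to 0.55), 0.42 for Emcn (-0.14 to 0.97) and -0.56 for Sox18 (-1.57 to 0.34). In the proliferating cells Adgrg1 had 0.24 (0.12 to 0.36), Neurl3 0.05 and Sox18 -0.01.

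**Figure D4:**
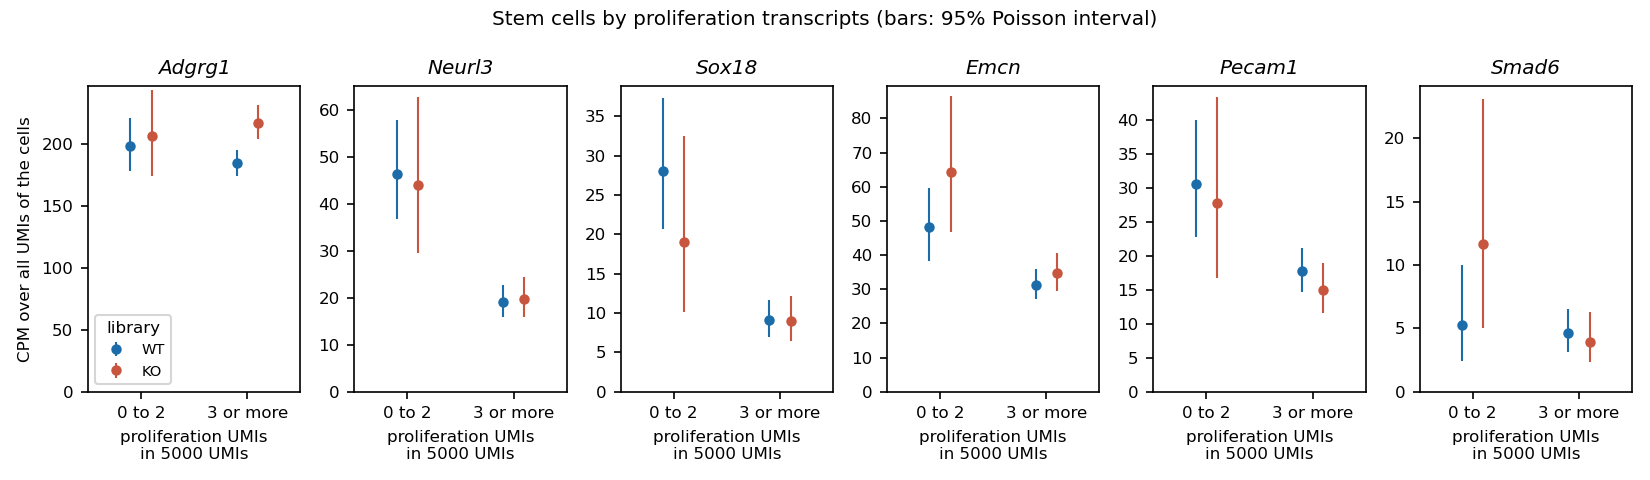
CPM (vertical axis, from 0) of 6 genes in stem cells with 0 to 2 or with 3 or more proliferation UMIs after thinning (horizontal axis), WT in blue and KO in red, with 95% Poisson intervals as bars. Neurl3, Sox18, Emcn and Pecam1 are higher on the left in both libraries, and Adgrg1 is not.

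Of 6 genes, 5 were higher in cells with Hlf and Mecom than in cells that passed no gate and had neither, with intervals above 0 in both libraries, as were 14.9% of 9747 genes. Smad6 was the exception, with a log2 of 0.57 (-1.41 to 2.11) in WT and 1.31 (-0.69 to 2.88) in KO. These levels are thinned counts of cells gated again after thinning, of which 155 WT and 130 KO cells held both genes. The group with neither held 1383 WT and 1693 KO cells, against 581 and 765 cells without a gate or gate gene at full depth. It was thus a mixed group, with cells that passed a gate or held Hlf or Mecom at full depth. There, Neurl3 was at 45.2 CPM in WT cells with Hlf and Mecom, 18.5 with either alone and 5.78 with neither, and in KO at 49.2, 24.9 and 5.08. Emcn went from 46.5 to 38.6 to 10.6 CPM in WT and from 53.8 to 36.9 to 10.3 in KO. Pecam1 went from 23.2 to 16.3 to 8.82 and from 29.2 to 16.0 to 7.91. Between both gate genes and either alone, the intervals of Emcn and Pecam1 included 0 in both libraries, and that of Neurl3 lay above 0 in both. Sox18 went from 21.9 to 9.87 to 4.19 in WT, and in KO from 13.8 to 14.2 to 3.66, where the log2 of the upper pair was -0.04 (-1.29 to 1.06). Adgrg1 was less steep, at 226, 187 and 126 CPM in WT and 245, 213 and 119 in KO. Stem cells with a Procr UMI had more Neurl3 than those without, with a log2 of 1.00 (0.17 to 1.77) in WT and 1.04 (0.02 to 1.97) in KO on thinned cells. By the same split Emcn had 1.16 (0.42 to 1.86) in WT and 0.56 (-0.39 to 1.41) in KO, and Pecam1 had 1.16 (0.10 to 2.15) and 0.51 (-1.05 to 1.81). The intervals of Adgrg1, Sox18 and Smad6 included 0 in both libraries on thinned cells. Some of these calls changed when Procr and the genes were counted over all UMIs. There, Sox18 had 0.72 (0.14 to 1.29) in WT and 0.49 (-0.42 to 1.35) in KO, and Emcn had 0.33 (-0.03 to 0.69) in WT. Neurl3 stayed above 0, at 0.50 (0.08 to 0.92) in WT and 1.02 (0.48 to 1.56) in KO.

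In endothelial cells all 8 genes had enough UMIs, and Adgrg1 and Sox17 were at or above a log2 of 0.5 in KO over WT, where 13.1% of 7868 genes were, and none was at or below -0.5, where 9.42% were. The intervals of both lay above 0, as they did for 6.09% of genes, and none lay below 0, as for 4.12%. The Sox17 UMIs numbered 45 over the WT and 89 over the KO cells, a log2 of 0.78 (0.25 to 1.33). The KO count was uneven over cells: 1 cell, called a doublet, held 20 of the 89 UMIs and the top 3 cells held 35, whereas no WT cell held more than 3. Sox17 was detected in 47.2% of WT and 44.1% of KO endothelial cells, in 28% and 22.7% after thinning to 5000 UMIs and in 38.5% and 40.4% after thinning to 10000, with intervals that overlapped widely each time. Without doublet calls Sox17 had a log2 of 0.53 (-0.07 to 1.15), and in female cells 1.19 (0.59 to 1.82).

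Adgrg1 in endothelial cells lay for the most part in cells called doublets. Only 10 of the 53 WT and 13 of the 68 KO cells held any, and 23 of the 27 WT UMIs and 29 of the 54 KO UMIs lay in the 6 doublet calls of each library. Without them Adgrg1 was at 6.22 CPM in WT and 30.6 in KO (log2 2.30, 0.76 to 4.28), on 4 and 25 UMIs. The part of doublets in the remaining UMIs was not tested. For the other 6 genes the intervals included 0, which does not show equal levels. Sox18 had a log2 of -0.04 (-0.40 to 0.32), Pecam1 -0.03 (-0.37 to 0.30), Sox7 0.38 (-0.53 to 1.33), Neurl3 -0.35 (-1.14 to 0.43), Smad6 -0.35 (-1.02 to 0.32) and Emcn -0.39 (-0.82 to 0.04). Without doublet calls Smad6 was at -0.63 and Emcn at -0.55.

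**Figure D5:**
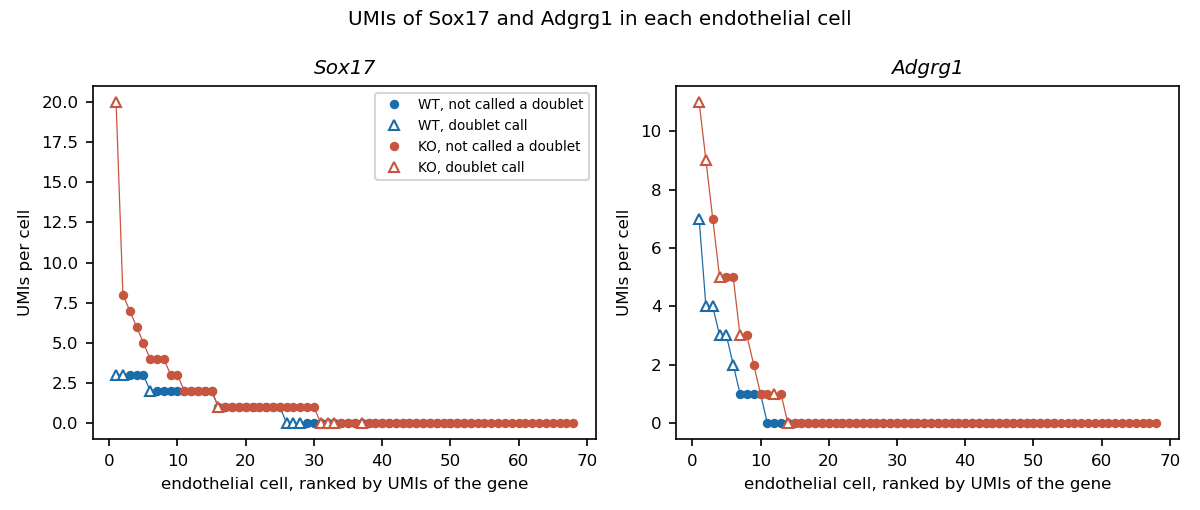
UMIs of Sox17 and Adgrg1 in each endothelial cell (vertical axis), with cells ranked by that count (horizontal axis), WT in blue, KO in red and doublet calls as open triangles. A KO doublet call holds 20 Sox17 UMIs, and the 6 WT cells highest in Adgrg1 are all doublet calls.

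In the other 9 groups of cells, 35 pairs of a gene and a group had at least 20 UMIs. Of these, 8 were at or above a log2 KO/WT of 0.5, as were 9.11% of the 87462 such pairs over all genes, and 2 were at or below -0.5, as were 6.19%. The interval lay above 0 in 4 pairs and below 0 in none, beside 8.41% and 6.57% of all pairs. Pecam1 in lymphoid-primed cells was at 11.3 CPM in WT (39 UMIs) and 25.1 in KO (73 UMIs), a log2 of 1.15 (0.57 to 1.75) in a group where 6.95% of genes had an interval above 0. It was 1.24 without doublet calls and 1.09 in female cells, and 33 of 118 WT and 51 of 141 KO cells held a UMI. The highest cell held 2 of the WT and 9 of the KO UMIs, and the top 3 cells held 6 and 15. Hlf in the same group was at 28.2 CPM in WT and 14.8 in KO (log2 -0.93, -1.48 to -0.40), while Meis1 had 0.19 (-0.22 to 0.59). The part of a different make-up of the group in the Pecam1 difference was not tested. Neurl3 in cells with Hlf or Mecom alone had a log2 of 0.58 (0.20 to 0.97), beside 10.2% of genes above 0 in that group, and 0.52 in female cells. That group depends on depth, with a median of 21889.5 UMIs in WT and 14320 in KO. Its Mecom was at 7.14 CPM in WT and 16.9 in KO (log2 1.25, 0.86 to 1.64), while its Hlf had -0.07 (-0.19 to 0.05). The part of a different make-up of the group in the Neurl3 difference was not tested.

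Adgrg1 made up the remaining pairs. In hepatocyte-gated cells it was at 22.8 CPM in WT and 55.3 in KO (log2 1.28, 0.67 to 1.93, where 7.62% of genes lay above 0), and 65 of the 111 KO UMIs lay in 12 doublet calls. Without doublet calls the log2 was 0.83 (0.06 to 1.65). In erythroid cells it had 0.12 (0.04 to 0.20, beside 8.71% of genes), and 0.06 in female cells (-0.03 to 0.16). In megakaryocytes, where Adgrg1 was as high as in stem cells, it had 0.07 (-0.16 to 0.30).

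The wider programme of blood emergence was read through 4 lists of other genes, 74 distinct genes of which 53 had at least 20 UMIs in stem cells. Of 20 hematopoietic emergence factors such as Runx1, Myb and Gfi1, 19 were counted and none passed a log2 of 0.5 (median -0.015). Runx1, named here after its values were seen, drives the passage from endothelium to blood and was at 88.3 CPM in WT and 86.3 in KO stem cells. Of 20 arterial endothelial genes only 6 were counted, and Hes1, a Notch target, was the single gene past the threshold, on 16 WT and 5 KO UMIs (log2 -1, -2.80 to 0.51). The median of that list was -0.183. Of 18 genes of BMP and SMAD signalling, 14 were counted (median -0.024), and of 18 endothelial surface genes known in blood stem cells, 15 (median -0.063), and none of either passed the threshold. Intervals lay above 0 for 3 of the 53 genes and below 0 for 4, close to the 6.53% and 5.35% over all genes. These 7 genes are named after their values were seen. Above 0 were Gata2 at 0.30 (0.04 to 0.55), the BMP target Id1 at 0.26 (0.02 to 0.49) and Myb at 0.13 (0.02 to 0.24). Below 0 were Smad7, like Smad6 an inhibitory SMAD, at -0.34 (-0.61 to -0.08), and the surface genes Esam at -0.33 (-0.64 to -0.03), Eng at -0.31 (-0.56 to -0.07) and Cd34 at -0.13 (-0.24 to -0.02).

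Over the 11 groups of both libraries (22 points that share cells within a library), Sox17 and Sox7 had like patterns (Pearson r = 0.95), as did Sox18 and Emcn (0.90) and Neurl3 and Emcn (0.88). Adgrg1 did not rise and fall with the others, with r between -0.42 (Smad6) and 0.25 (Neurl3 and Pecam1). These values describe log2(CPM + 1) and carry no test. Sox7 had UMIs only in endothelial cells (18 in WT, 27 in KO) and in KO erythroid cells (2 UMIs). Its r with Sox17 therefore rests on the endothelial points. The genes most like Sox17 were Tcim (0.981) and Flrt2 (0.978), both near 0 in stem cells. Those most like Sox18 were Rasip1 (0.969), an endothelial Ras effector, and Ramp2 (0.965), and those most like Emcn were Ecscr (0.970), an endothelial surface protein, and Nhs (0.969). Neurl3 was most like Tlr12 (0.918) and Hoxb3os (0.915), Pecam1 most like Kctd10 (0.945) and Pam (0.943), Smad6 most like Luzp1 and Ier5l (both 0.937) and Adgrg1 most like 9530018F02Rik and Treml2 (both 0.925). Sox7, with 65 UMIs over all cells, was too rare for this search of like genes.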

How the data were processed

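The authors sequenced 10x 3′ libraries, aligned them to mm10 with Cell Ranger 6.0.0 (per the submitters' processing notes) and deposited, for each library, a matrix of raw UMI counts per gene and cell. No column of per-sample values was left unused. Barcodes passed with 1000 or more genes and no more than 20% of UMIs from mitochondrial genes. Doublets were called in each library with the Scrublet method in scanpy 1.11.5 at an expected 5%, and were kept in the main values and left out in an alternative. Cells were gated by marker genes, and groups under 20 cells were not compared.

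CPM was computed from the summed counts of a gated group, with 95% Poisson intervals, and ratios were given 95% conditional Clopper-Pearson intervals (scipy 1.17.1, numpy 2.4.6, pandas 2.3.3). UMI counts correct for amplification, but the intervals cover counting error only. With 1 library per genotype no p-value was computed. A gene entered a KO/WT comparison with 20 UMIs over both libraries, and log2 0.5 between genotypes and log2 1 between cell groups were the thresholds. Shares were taken after thinning each cell to 5000 UMIs. The scripts were tested on simulated data.

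The text names the 8 genes, Nfkbia, the gate genes, the listed stem cell genes and the endothelial markers. It also names list genes past the threshold and, for each of the 8 with 100 UMIs, the 2 genes most correlated with it. Other names are said to have been chosen after their values were seen. The 8 genes and the lists were chosen with earlier results of these data known. Alternatives were another gate depth, 2 Hlf UMIs, either gate gene, no doublet calls, 2000 genes per cell, clusters, female cells, other CPM totals, stem cells without endothelial UMIs and other minimum counts. The split at 3 proliferation UMIs, the splits on all UMIs, thinned counts of the thinned gate and, in the other groups, female cells and cells without doublet calls were chosen after seeing the data.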

Additional observations from a re-analysis of the deposited data

How the results depend on the processing

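No paired analysis was possible because WT and KO were 1 library apiece, and for the same reason no library could be left out. Over stem cells, the genes' median log2 ratio of KO to WT lay between -0.18 and 0.12 over 13 alternatives, and no alternative put a gene at 0.5 or above. With the gates set on thinned cells (155 WT and 130 KO stem cells), 1 gene passed -0.5, Neurl3 at -0.63 (-1.17 to -0.11) over all UMIs of those cells. The mean Neurl3 CPM per cell over all UMIs, which weighs each cell alike, was also lower in KO, at 39.3 against 58.5 in WT. The thinned counts of the same cells gave 0.12 for Neurl3 (-0.61 to 0.86) on 35 and 32 UMIs. They put 1 gene past -0.5, Sox18 at -0.66 on 17 and 9. Adgrg1 lay between 0.08 (clusters in place of gates) and 0.25 in stem cells. With the gates set on thinned cells it had 0.20 (0.00 to 0.40) over all UMIs and 0.12 (-0.20 to 0.43) on thinned counts. In endothelial cells the genes at or below -0.5 numbered 2 without doublet calls and 1 in female cells, and Adgrg1 stood at 2.30 without doublet calls. In the other groups, female cells gave 4 pairs at 0.5 or above and 0 at -0.5 or below, and leaving out doublet calls gave 1 at -0.5 or below. The causes were not tested. Without thinning, the KO minus WT share of stem cells with a UMI was -3.63 percentage points for Adgrg1, the reverse of the thinned sign, -7.43 for Sox18, -6.32 for Neurl3, -4.88 for Emcn and -13.4 for Pecam1. The count of genes 2-fold higher in stem cells than in other cells lay between 5 and 7, and that of genes 2-fold lower than in endothelial cells between 4 and 5, each over 10 alternatives. Sox17 had at most 8 stem cell UMIs per library and Sox7 had 0 under 9 alternatives of cells. Depth limits Smad6, Sox17 and Sox7 in stem cells.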
